A study of Mus musculus with 23 samples.

Results

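Globin and red cell transcripts are described here across a mouse heart RNA sequencing series. The set holds 7 genes, found by symbol among the 46077 genes of the deposited expression table: the alpha globins Hba-a1 and Hba-a2, the beta globins Hbb-bs and Hbb-bt, Alas2, Bpgm and Slc4a1. All 7 were present. They serve as a measure of blood in each preparation. The 23 libraries came from hearts of male mice, and Panx1 encodes the channel pannexin 1. Knockout mice are labelled Panx1MyHC6 and lose the gene through a driver of the Myh6 promoter, which acts in cardiomyocytes alone, so other heart cells and blood keep the gene. Wild-type mice are labelled Panx1fl/fl and carry the floxed allele. Isolated cardiomyocytes came from knockout (n = 4) and wild-type (n = 4) mice given isoproterenol (15 mg/kg/day over 14 days), which stimulates beta-adrenergic receptors, and from knockout (n = 3) and wild-type (n = 3) mice given saline. Whole hearts came from isoproterenol-treated mice labelled knockout (n = 4) and wild-type (n = 5). The labels give no age, and none of the 23 libraries is a whole heart after saline. Per the labels' protocols, cells were lysed in TRIzol and tissue was bead-homogenised in RLT buffer, so cell isolation and RNA extraction cannot be told apart in a comparison of the preparations.

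Red cells carry oxygen on hemoglobin, a tetramer of alpha and beta globin chains, each with a heme group. Precursors in bone marrow make globin and heme at a high rate, lose the nucleus and enter the blood as reticulocytes, which still hold messenger RNA. Globin transcripts in a heart sample are therefore commonly read as blood left in the vessels. Alas2 is the erythroid form of the first enzyme of heme synthesis. Bpgm makes 2,3-bisphosphoglycerate, which lowers the oxygen affinity of hemoglobin, and Slc4a1 encodes band 3, the anion exchanger of the red cell membrane.

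The libraries held 21.03 M to 39.63 M reads assigned to genes. Mitochondrial transcripts took 46.8 to 80.0% of them in cardiomyocyte libraries and 16.7 to 25.5% in whole hearts. Panx1 averaged 1.04 ± 0.12 FPKM in knockout and 1.55 ± 0.28 FPKM in wild-type cardiomyocytes after isoproterenol (SD, n = 4 each), and 1.67 ± 0.36 FPKM in knockout and 2.21 ± 0.66 FPKM in wild-type cells after saline (SD, n = 3 each). FPKM counts fragments per kilobase of gene and per M reads of library size. In whole hearts it went against the labels, at 0.651 ± 0.189 FPKM in those labelled knockout (SD, n = 4) and 0.412 ± 0.066 FPKM in those labelled wild-type (SD, n = 5), and these hearts are named by label below. Summed over 12 cardiomyocyte markers, the level averaged 7476 and 5028 FPKM in knockout and wild-type cardiomyocyte preparations after isoproterenol and 3894 and 1917 FPKM in knockout and wild-type preparations after saline. It was higher in whole hearts, at 11923 FPKM in those labelled knockout and 14152 FPKM in those labelled wild-type. By mean, these markers were thus lower, not higher, in the isolated preparations. Libraries overlapped between the knockout groups after isoproterenol, at 2839 to 13093 FPKM in cardiomyocytes and 9311 to 13939 FPKM in hearts labelled knockout.

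The promoters of 6 of the 7 genes are in the RefSeq table for GRCm38.p6, and 4 are shown because the levels of Hba-a1, Hbb-bs and Alas2 moved together across libraries of both preparations and that of Bpgm did so in cardiomyocytes. Each is the 250 bases before the RefSeq start, 5′ to 3′ on the strand of the gene. Capitals mark the word AGATAA, its variant AGATAG, and likewise TGATAA with its variant TGATAG, which GATA factors can bind, and CACCC, which Krüppel-like factors can bind, on either strand.
Hba-a1, chr11:32283422-32283671, plus strand: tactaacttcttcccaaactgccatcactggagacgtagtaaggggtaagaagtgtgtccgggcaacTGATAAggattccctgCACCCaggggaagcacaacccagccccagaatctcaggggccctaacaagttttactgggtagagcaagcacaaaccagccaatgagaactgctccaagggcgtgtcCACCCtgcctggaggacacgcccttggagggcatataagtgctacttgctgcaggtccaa
Hbb-bs, chr7:103827929-103828178, minus strand: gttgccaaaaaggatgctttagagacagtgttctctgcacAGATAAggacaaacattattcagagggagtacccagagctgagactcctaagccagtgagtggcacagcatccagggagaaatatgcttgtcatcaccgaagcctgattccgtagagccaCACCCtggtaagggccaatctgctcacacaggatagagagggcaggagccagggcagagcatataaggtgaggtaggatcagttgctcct
Alas2, chrX:150547167-150547416, plus strand: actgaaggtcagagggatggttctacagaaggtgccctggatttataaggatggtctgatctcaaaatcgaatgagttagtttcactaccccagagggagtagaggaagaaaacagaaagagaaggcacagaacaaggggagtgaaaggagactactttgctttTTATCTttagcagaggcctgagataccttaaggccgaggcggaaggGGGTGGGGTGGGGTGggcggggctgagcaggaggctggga
Bpgm, chr6:34476106-34476355, plus strand: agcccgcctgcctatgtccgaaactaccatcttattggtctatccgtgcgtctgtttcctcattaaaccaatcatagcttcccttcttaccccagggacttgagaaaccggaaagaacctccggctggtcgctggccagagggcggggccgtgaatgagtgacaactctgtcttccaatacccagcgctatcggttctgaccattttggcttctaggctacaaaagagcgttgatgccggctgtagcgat
The Hba-a1 window held 1 GATA word and 2 CACCC words, that of Hbb-bs 1 and 1, and that of Alas2 1 and 3. All marked words of Alas2 are on the opposite strand. The Bpgm window held neither word. Among 32536 promoter windows of this length, 26.5% held a GATA word, 52.1% held CACCC and 11.8% held both, so each word alone is common. The Hba-a2 window shares an unbroken stretch of 247 bases with that of Hba-a1, while the longest stretch shared by the Hbb-bs and Hbb-bt windows is 14 bases. The Hbb-bt window held 3 CACCC words and no GATA word. A match describes letters in a window and does not show binding. The deposited gene models of Hba-a1 (chromosome 11, 32283511 to 32284465), Hbb-bs (chromosome 7, 103826534 to 103828096), Alas2 (chromosome X, 150547375 to 150570638) and Bpgm (chromosome 6, 34476207 to 34505613) begin upstream of these RefSeq starts, inside the windows.

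Hba-a1 and Hba-a2 are near-identical copies, as are Hbb-bs and Hbb-bt. The annotated GENCODE M21 transcripts of Hba-a1 and Hba-a2 share a stretch of 415 bases, and 56.5% of all 100-base stretches of the first occur unchanged in the second. Those of Hbb-bs and Hbb-bt share a stretch of 430 bases, and 62.6% of 100-base stretches of the first occur in the second. How the authors' counting shared reads between such copies is not stated, so the split within each pair is uncertain, and the sum of the 4 globins is firmer than any single one. Hba-a2 (chromosome 11, 32296489 to 32297298) and Hbb-bt (chromosome 7, 103812524 to 103813996) are the lower of each pair in every library.

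Globin transcripts were high in every isolated cardiomyocyte library and low in every whole heart. The 4 globins took 0.351 to 2.49% of assigned reads in cardiomyocyte libraries and 0.0055 to 0.0860% in whole hearts. The lowest cardiomyocyte share (PNXM645, wild-type after isoproterenol, 95% Wilson interval 0.348 to 0.353%) lay above the highest whole-heart share (PNXM199, labelled knockout, 0.0850 to 0.0870%). These intervals cover counting error only. In bulk RNA, fewer red cells and less RNA per red cell cannot be told apart.

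Hbb-bs, the major adult beta globin here, was 2447, 2541, 5080 and 5403 FPKM in knockout cardiomyocytes after isoproterenol, against 2874, 7774, 22057 and 28491 FPKM in wild-type cardiomyocytes after isoproterenol. After saline it was 2708, 10741 and 25813 FPKM in knockout cells, against 3313, 5047 and 13056 FPKM in wild-type cells. Whole hearts labelled knockout had 19.5, 46.2, 54.8 and 270.2 FPKM, against 26.6, 42.0, 86.4, 105.8 and 182.8 FPKM in those labelled wild-type. The 4 cardiomyocyte groups overlapped one another, the 2 whole-heart groups did so too, and no whole heart reached the lowest cardiomyocyte library. By mean, Hbb-bs was ordered from wild-type cells after isoproterenol (15299 ± 11980 FPKM, n = 4) through knockout cells after saline (13087 ± 11730 FPKM, n = 3), wild-type cells after saline (7139 ± 5197 FPKM, n = 3) and knockout cells after isoproterenol (3868 ± 1592 FPKM, n = 4) to hearts labelled knockout (97.7 ± 116 FPKM, n = 4) and wild-type (88.7 ± 61.6 FPKM, n = 5), all SD. That order holds on the deposited scaling. As a share of assigned reads, the 4 globins averaged highest in wild-type cells after saline (1.59%). Wild-type cells after isoproterenol (1.36%) and knockout cells after saline (1.34%) came next. Of reads outside the mitochondrial chromosome, the share averaged 6.29% in knockout cells after saline and 6.13% in wild-type cells after isoproterenol. It was 4.11% in wild-type cells after saline and 1.92% in knockout cells after isoproterenol. The order of the hearts rests on PNXM199, since the median was 50.5 FPKM in hearts labelled knockout and 86.4 FPKM in those labelled wild-type. Between neighbours in the order of Hbb-bs means, the ranges of libraries were apart at 1 step, that between knockout cells after isoproterenol and the hearts.

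Hba-a1, the more abundant alpha globin, was 2184, 2345, 5726 and 5769 FPKM in knockout and 3107, 9207, 19879 and 30104 FPKM in wild-type cardiomyocytes after isoproterenol. After saline it was 2926, 13614 and 30391 FPKM in knockout and 3730, 5250 and 16001 FPKM in wild-type cells. In whole hearts it was 17.6, 42.0, 52.4 and 234.9 FPKM in those labelled knockout and 25.0, 37.4, 85.8, 106.7 and 189.4 FPKM in those labelled wild-type. The libraries that were high for Hbb-bs were high for Hba-a1. Ranked by FPKM among all genes of a library, Hba-a1 stood at a median rank of 18.5 in cardiomyocyte libraries and 543 in whole hearts.

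**Figure D1:**
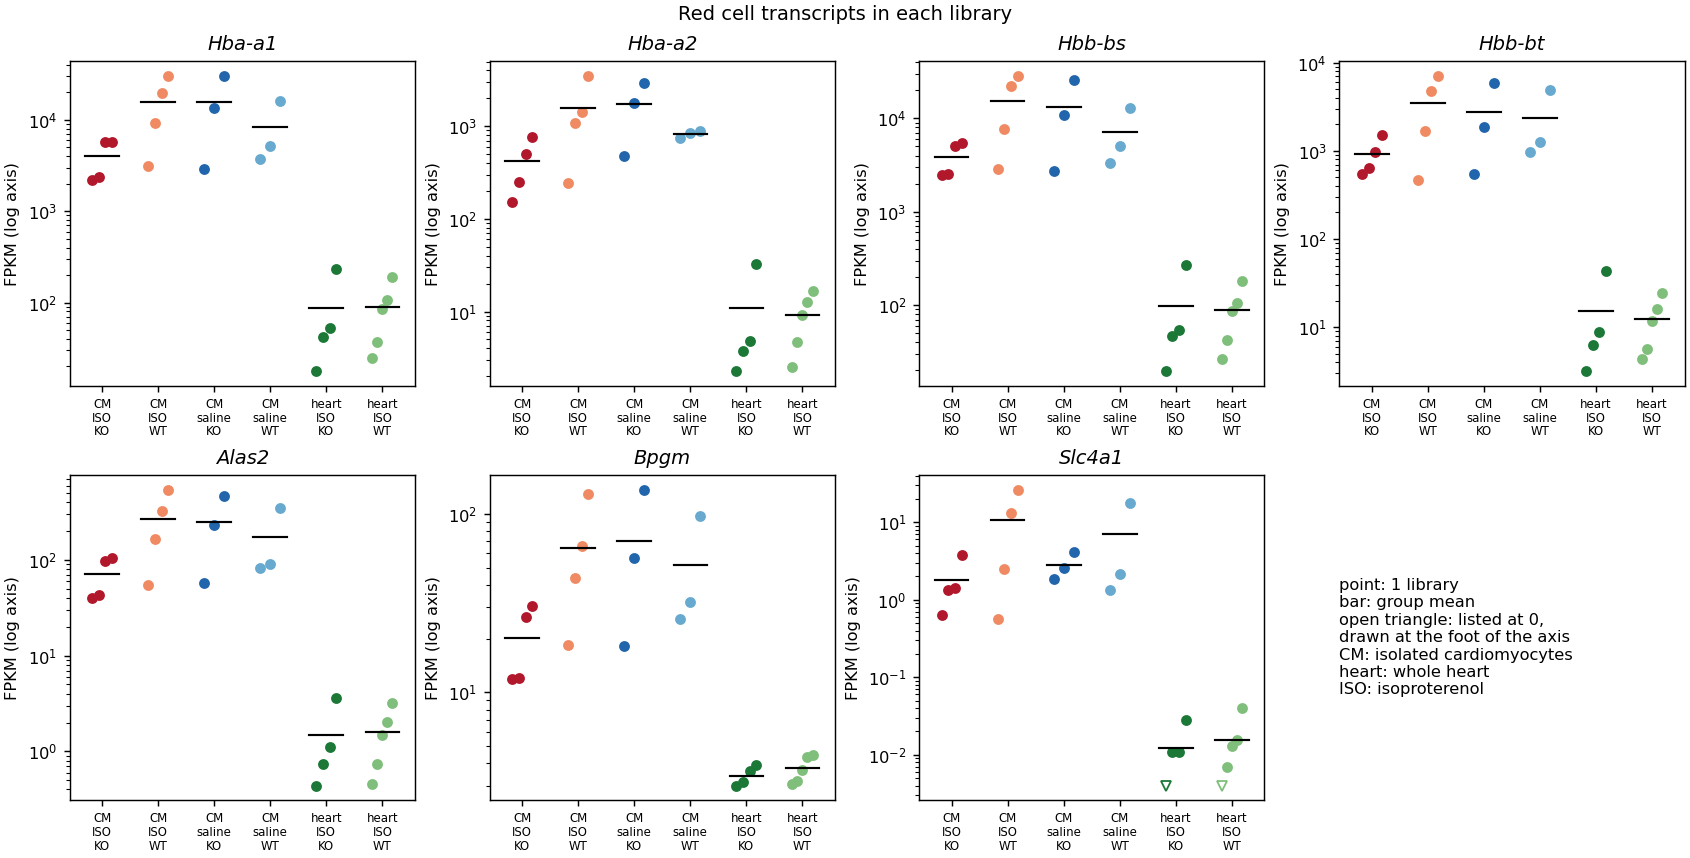
FPKM of each of the 7 genes on a log axis, with 1 point per library in order of value, open triangles for values listed at 0, a bar for the group mean, and knockout (KO) left of wild-type (WT) and isoproterenol (ISO) left of saline in cardiomyocytes (CM). All cardiomyocyte libraries lie above all whole hearts for each gene, for Hbb-bs at 2447 to 28491 against 19.5 to 270.2 FPKM, and groups overlap within each preparation.

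The minor copies spanned a wide range as well. Hba-a2 was 153.0 to 3500 FPKM, with a median of 802.7 FPKM, over the 14 cardiomyocyte libraries and 2.25 to 32.7 FPKM, with a median of 4.77 FPKM, over the 9 whole hearts. Hbb-bt was 468.3 to 7109 FPKM in cardiomyocyte libraries and 3.14 to 43.0 FPKM in whole hearts. Of the remaining globin genes, the embryonic Hbb-bh1 and Hbb-bh2 had no read in any of the 6 groups. The theta-like globins Hbq1a and Hbq1b were low, and Hbq1b averaged 2.22 ± 1.36 FPKM in wild-type cardiomyocytes after isoproterenol (SD, n = 4) and 0.0206 ± 0.0344 FPKM in hearts labelled wild-type (SD, n = 5).

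Alas2, the erythroid heme enzyme, was 40.1, 43.6, 97.1 and 104.3 FPKM in knockout and 54.5, 166.5, 322.7 and 540.0 FPKM in wild-type cardiomyocytes after isoproterenol. After saline it was 56.9, 230.4 and 469.9 FPKM in knockout and 82.3, 91.9 and 351.3 FPKM in wild-type cells. In whole hearts it was 0.439, 0.731, 1.11 and 3.65 FPKM in those labelled knockout and 0.454, 0.742, 1.49, 2.04 and 3.23 FPKM in those labelled wild-type. Alas2 thus followed the globins at about the same distance in both preparations, and its ratio to Hbb-bs was 0.0146 to 0.0269 in cardiomyocyte libraries and 0.0135 to 0.0225 in whole hearts.

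Bpgm, the bisphosphoglycerate enzyme, was 11.9, 12.0, 26.4 and 30.6 FPKM in knockout and 18.4, 43.5, 66.2 and 129.6 FPKM in wild-type cardiomyocytes after isoproterenol. After saline it was 18.3, 56.7 and 136.1 FPKM in knockout and 25.8, 32.1 and 97.5 FPKM in wild-type cells. In whole hearts it was 3.002, 3.12, 3.62 and 3.91 FPKM in those labelled knockout and 3.07, 3.20, 3.65, 4.33 and 4.46 FPKM in those labelled wild-type. It varied 11.4-fold across cardiomyocyte libraries but 1.48-fold across whole hearts, where Hbb-bs varied 13.9-fold. Its ratio to Alas2 was 0.205 to 0.349 in cardiomyocyte libraries and 1.07 to 7.11 in whole hearts, with no overlap, and the heart with the least Hbb-bs (PNXM242) had the highest ratio.

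Slc4a1 (chromosome 11, 102348824 to 102366203), the band 3 gene, was the lowest of the 7. It was 0.642, 1.33, 1.40 and 3.78 FPKM in knockout and 0.571, 2.51, 13.02 and 26.1 FPKM in wild-type cardiomyocytes after isoproterenol, and 1.85, 2.55 and 4.09 FPKM in knockout and 1.35, 2.15 and 17.5 FPKM in wild-type cells after saline. Whole hearts held 0 to 8 Slc4a1 reads each. PNXM242, labelled knockout, and PNXM238, labelled wild-type, had 0 reads, which allows a share of up to 7.57e-06 and 8.71e-06% of assigned reads in these libraries, at 3 reads. The 3 cardiomyocyte libraries above 10 FPKM were all wild-type (2 after isoproterenol, 1 after saline), while PNXM664, a knockout library after saline with 25813 FPKM of Hbb-bs, had 4.09 FPKM of Slc4a1.

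**Figure D2:**
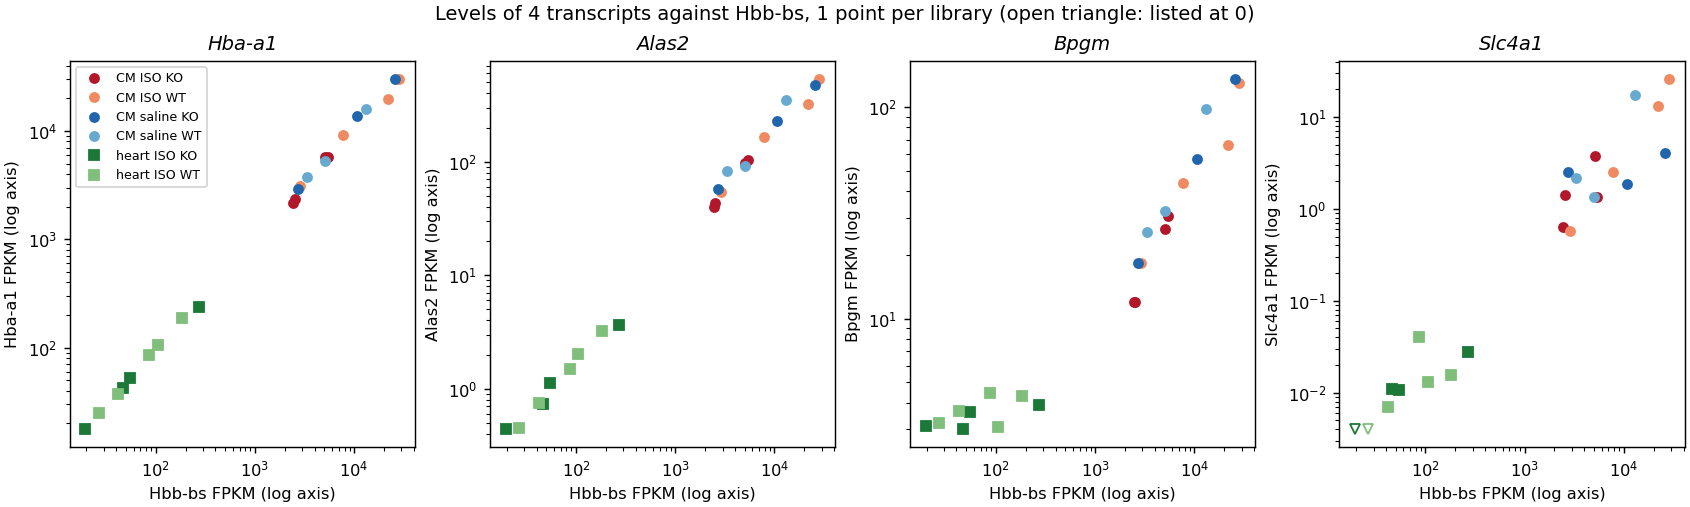
FPKM of Hba-a1, Alas2, Bpgm and Slc4a1 against FPKM of Hbb-bs, both on log axes, with 1 point per library (circles for cardiomyocytes, squares for whole hearts). Hba-a1 and Alas2 rise with Hbb-bs in both preparations, Bpgm stays between 3.002 and 4.46 FPKM in whole hearts, and Slc4a1 is the most scattered.

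Ratios within a library do not depend on the scaling between libraries. The ratio of Hba-a1 to Hbb-bs was narrow, at 0.893 to 1.27 in cardiomyocyte libraries and 0.869 to 1.04 in whole hearts. The ratio of both alpha to both beta globins was 0.779 to 1.22 in cardiomyocyte libraries and 0.854 to 0.994 in whole hearts. The ratios within each pair of copies were wider. Hba-a2 over Hba-a1 was 0.0527 (PNXM649) to 0.238 (PNXM661) in cardiomyocyte libraries, a 4.52-fold range with both ends among wild-type libraries after saline, and 0.0884 to 0.139 in whole hearts, a 1.57-fold range. Hbb-bt over Hbb-bs was 0.163 to 0.380 in cardiomyocyte libraries and 0.134 to 0.164 in whole hearts. The exact counting intervals of the 2 ends of Hba-a2 over Hba-a1, 0.0518 to 0.0537 (PNXM649) and 0.235 to 0.242 (PNXM661), did not overlap. Slc4a1 over Alas2 varied 6.20-fold across cardiomyocyte libraries, from 0.00804 to 0.0499. The mean of Hbb-bt over Hbb-bs was 0.238 ± 0.043 in knockout and 0.212 ± 0.036 in wild-type cells after isoproterenol (SD, n = 4 each), and 0.201 ± 0.029 in knockout and 0.317 ± 0.109 in wild-type cells after saline (SD, n = 3 each).

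**Figure D3:**
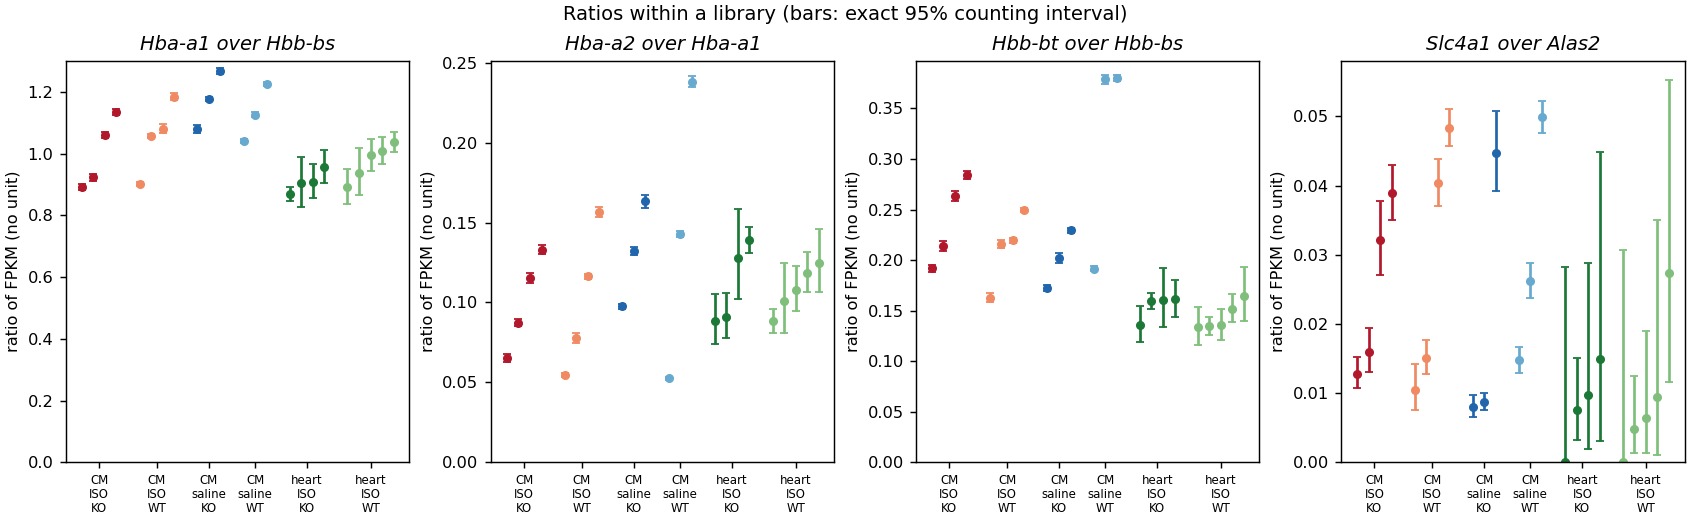
Ratios of FPKM within each library, with 1 point per library and bars for the exact 95% counting interval, KO left of WT. Hba-a1 over Hbb-bs lies between 0.869 and 1.27 in all libraries, whereas Hba-a2 over Hba-a1 runs from 0.0527 to 0.238 in cardiomyocyte libraries.

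The first comparison between groups asked whether knockout and wild-type preparations held different amounts of red cell RNA. After isoproterenol, all 7 genes had a lower estimate in knockout cardiomyocytes, and none passed the test. Their levels move together across libraries, so the 7 estimates are not independent. Over all genes the median log2 difference was 0.007. Differences of log2(FPKM + 1) were -1.67 ± 0.80 (SE) for Hba-a1, -1.59 ± 0.78 for Hbb-bs, -1.61 ± 0.76 for Alas2, -1.43 ± 0.67 for Bpgm and -1.39 ± 0.80 for Slc4a1. The limma adjusted p was 0.797 for each of the 7, with unadjusted p between 0.0507 and 0.127. Of 11919 genes tested, 0% were called, 739 had an unadjusted p below 0.05, and voom on recovered reads called 0 as well. Each gene's groups overlapped, since wild-type library PNXM645 was no higher than the highest knockout library. The size rested on the scaling: quantile normalization gave -0.56 for Hba-a1 and -0.53 for Hbb-bs, and leaving out the scaling between libraries gave -0.73 for Hbb-bs and -0.76 for Alas2, with the same sign and no call. Without PNXM647 the Hbb-bs difference was -1.13, and without PNXM645 it was -2.23, and with each library left out in turn its limma adjusted p was 0.446 or more. The 4 globins took 0.670 ± 0.247% of assigned reads in knockout and 1.36 ± 0.93% in wild-type cells (SD, n = 4 each).

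Lists of other red cell genes did not all have the sign of the members in these libraries. Of 10 red cell membrane genes tested 5 were positive and 5 negative (median -0.01), of 8 iron supply genes 5 were positive and 3 negative (median 0.10), and of 8 heme synthesis enzymes 3 were positive and 5 negative (median -0.12), none called. Of the listed erythroid regulators and maturation genes, 19 of 20 tested had a negative difference, with a median of -0.69 against 0.007 over all genes, and none passed the test. Among them Ube2l6, a ubiquitin-conjugating enzyme, was 26.8 ± 8.4 FPKM in knockout and 111.0 ± 87.1 FPKM in wild-type cells (SD, n = 4 each). All 10 platelet genes tested were negative (median -0.91), as were all 14 neutrophil (median -1.53) and all 14 lymphocyte genes (median -0.84), none called. The summed neutrophil level ranged from 27.9 to 996 FPKM in knockout and from 42.6 to 3319 FPKM in wild-type cells, and no neutrophil marker was at 0 in either group. All 12 cardiomyocyte markers were positive (median 0.55), none called. Genes of 1 list can move together across libraries, so the signs within a list are not independent. The filter asked for an FPKM of 1 in 3 cardiomyocyte libraries, so a low gene can enter through the group where it is high. The counts of signs in these lists therefore carry no weight of their own. The mitochondrial share averaged 61.1 ± 10.6% in knockout and 77.2 ± 1.8% in wild-type cells (SD, n = 4 each). The part of these measures in the globin values was not tested.

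After saline, none of the 7 genes passed the test in knockout against wild-type cardiomyocytes, where 0% of 11919 genes were called by limma (421 at an unadjusted p below 0.05, and 0 by voom). The Hbb-bs difference was 0.59 ± 0.90 (SE, adjusted p = 0.896) and that of Slc4a1 was -0.47 ± 0.93 (adjusted p = 0.916). The sign of the globin estimates rested on the scaling and on the reads taken as the total. On the deposited FPKM Hbb-bs was 13087 ± 11730 in knockout and 7139 ± 5197 in wild-type cells (SD, n = 3 each). The 4 globins took 1.34 ± 0.96% of assigned reads in knockout and 1.59 ± 0.79% in wild-type cells (SD, n = 3 each). Of reads outside the mitochondrial chromosome they took 6.29 ± 5.22% in knockout and 4.11 ± 2.62% in wild-type cells (SD, n = 3 each). The deposited values already carry a scaling between libraries, and without it the Hbb-bs difference was -0.40 while the median of all genes shifted to -0.69. It also rested on 1 library, since without PNXM664 the Hbb-bs difference was -0.16 in limma. The mitochondrial share averaged 75.9 ± 5.8% in knockout and 59.0 ± 5.2% in wild-type cells (SD, n = 3 each), and its part in these values was not tested. All 14 neutrophil genes tested had a negative difference (median -0.63), and so did all 14 lymphocyte genes (median -0.62), none called. The limits given for such counts after isoproterenol hold here as well.

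Isoproterenol was compared with saline within each genotype. In wild-type cardiomyocytes none of the 7 genes passed the limma test, where 0.705% of 11919 genes were called. The Hbb-bs difference was 0.85 ± 0.84 (SE, adjusted p = 0.523) and that of Hba-a2 was 0.38 ± 0.82 (adjusted p = 0.785). Without the scaling between libraries, the median of all genes shifted to -0.78 and the Hbb-bs difference was -0.34. In knockout cardiomyocytes all 7 estimates were negative and none was called, where 0% of genes were (807 at an unadjusted p below 0.05, and 0 by voom). Hba-a2 had the smallest unadjusted p of the 7, at 0.0312, with 417.7 ± 273 FPKM after isoproterenol (SD, n = 4) and 1748 ± 1245 FPKM after saline (SD, n = 3), a difference of -1.97 ± 0.82 (SE) and a limma adjusted p of 0.582. The Hbb-bs difference in knockout cells was -1.33 ± 0.84 (SE), and it was -0.42 with quantile normalization, -0.68 without the scaling and -0.58 without PNXM664. The difference between the 2 responses, knockout minus wild-type, was -2.18 ± 1.19 (SE) for Hbb-bs and was not called for any of the 7 (limma adjusted p = 1), where 0% of genes were called (294 at an unadjusted p below 0.05, and 0 by voom). For Hbb-bs it was 0.021 with quantile normalization, -0.33 without the scaling and -1.43 without PNXM664. These comparisons share groups, and the 7 genes move together across libraries, so their estimates are not independent.

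In whole hearts the labelled genotypes did not differ detectably. Of the 7 genes 6 passed the filter on low values, Slc4a1 did not, and none of the 6 was called by limma, where 0% of 10189 genes were called (652 at an unadjusted p below 0.05, and 0 by voom). The Hbb-bs difference was -0.23 ± 0.72 (SE, adjusted p = 0.976) and that of Bpgm was -0.10 ± 0.11 (adjusted p = 0.927). The group labelled knockout holds both the highest heart for Hbb-bs, PNXM199 at 270.2 FPKM, and the lowest, PNXM242 at 19.5 FPKM. Without PNXM199 the Hbb-bs difference was -0.94, and without PNXM242 it was 0.30.

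**Figure D4:**
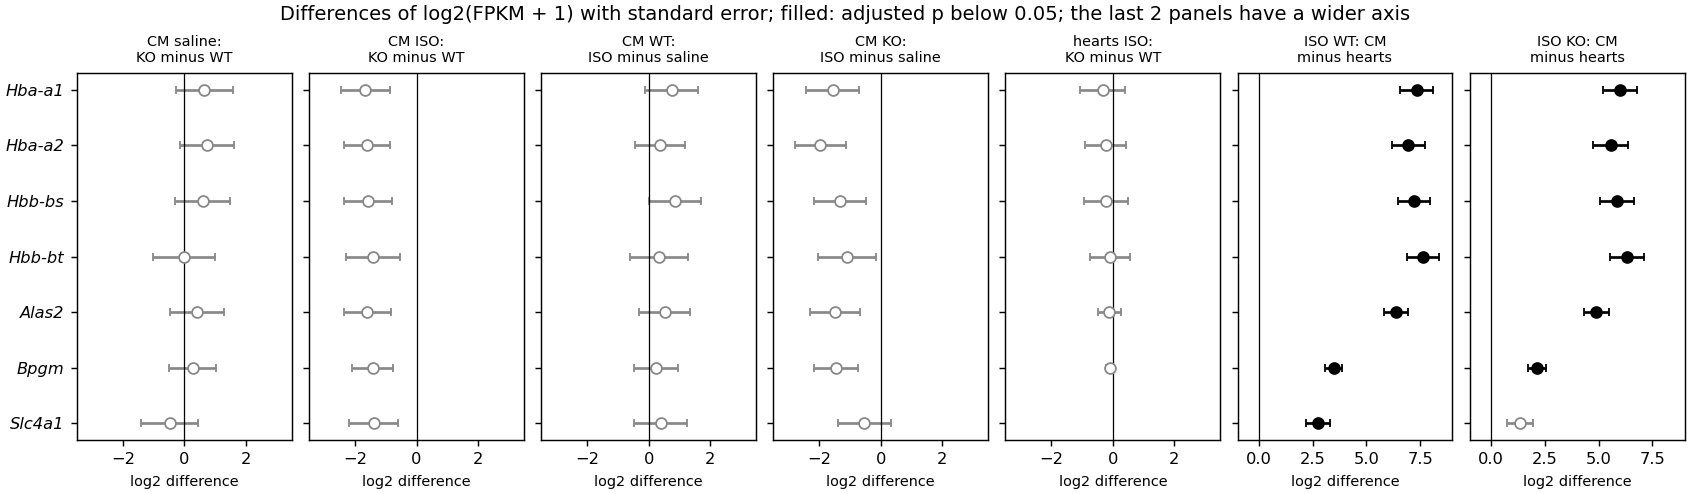
Differences of log2(FPKM + 1) with standard errors for each gene in 7 comparisons, each panel headed by the first group minus the second; filled points have an adjusted p below 0.05. The 5 panels within a preparation have open points only, and the last 2, cardiomyocytes minus whole hearts, have filled points at 2.15 to 7.64 apart from Slc4a1 in knockout.

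Isolated cardiomyocytes were then set against whole hearts after isoproterenol. Among wild-type preparations all 7 genes were called higher in cardiomyocytes, where 28.9% of 11386 genes were called higher and 63.9% in either direction. Hba-a1 was 15574 ± 11910 FPKM in cardiomyocytes (SD, n = 4) and 88.9 ± 65.5 FPKM in whole hearts (SD, n = 5), a log2 difference of 7.34 ± 0.76 (SE, limma adjusted p = 9.21e-07). Hbb-bs rose by 7.23 ± 0.75 (SE, adjusted p = 9.65e-07 in limma), Hbb-bt by 7.64 ± 0.76, Hba-a2 by 6.95 ± 0.77 and Alas2 by 6.38 ± 0.55. Bpgm rose less, by 3.48 ± 0.40, to 64.4 ± 47.6 FPKM in cardiomyocytes (SD, n = 4) against 3.74 ± 0.63 FPKM in whole hearts (SD, n = 5). Slc4a1 passed the filter through the cardiomyocyte libraries alone, so its call carries no weight of its own. The added pseudocount compresses its difference of 2.74 ± 0.57 (SE). With voom on recovered reads, all 7 were also called.

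Between the preparations labelled knockout, 6 of the 7 genes were called higher in cardiomyocytes, where 19.6% of genes were called higher and 42.7% in either direction. Hbb-bs was 3868 ± 1592 FPKM in cardiomyocytes and 97.7 ± 116 FPKM in whole hearts (SD, n = 4 each), a log2 difference of 5.87 ± 0.79 (SE, limma adjusted p = 3.94e-05). Bpgm rose by 2.15 ± 0.42 (SE, adjusted p = 0.000777 in limma). Slc4a1 differed by 1.35 ± 0.60 with a limma adjusted p of 0.0796 (0.0169 with voom), at 1.79 ± 1.37 FPKM in cardiomyocytes and 0.0123 ± 0.0114 FPKM in whole hearts (SD, n = 4 each). For all 7 genes every cardiomyocyte library lay above every whole heart in both comparisons, which held for 22.9% of genes tested in the wild-type and 17.4% in the knockout comparison. Slc4a1 passed the filter through the cardiomyocyte libraries alone, so its separation and its voom call carry no weight of their own. Whether the gap between preparations differs between genotypes was not tested.

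Genes of red cells differed among themselves between the preparations. In the wild-type comparison, where 28.9% of all genes rose and 35% fell, 12 of 15 erythroid regulators and maturation genes tested rose and 1 fell. Isg20, an exonuclease, was 21.9 ± 12.9 FPKM in cardiomyocytes (SD, n = 4) and 0.930 ± 0.157 FPKM in whole hearts (SD, n = 5). Of 8 shared heme synthesis enzymes, 1 rose and 3 fell. Alas1, the housekeeping counterpart of Alas2, fell by 1.53 on the log2 scale, to 9.58 ± 3.44 FPKM in cardiomyocytes (SD, n = 4) against 29.0 ± 6.8 FPKM in whole hearts (SD, n = 5). Of 10 red cell membrane genes tested, 4 rose and 3 fell, among them the water channel Aqp1 (1.11 higher on the log2 scale) and the skeleton genes Ank1 and Sptb, which fell by 1.73 and 1.71. Both Ank1 and Sptb are also expressed in muscle. Aqp1 averaged 126.6 ± 11.2 FPKM in hearts labelled wild-type, where Alas2 averaged 1.59 ± 1.11 FPKM (SD, n = 5). Which cells the Aqp1 level came from was not tested. Of 8 iron supply genes 3 rose and 4 fell. These lists are short, and no result is read from their counts beside the shares over all genes.

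Markers of other cells moved with the globins between the preparations. Within the 9 whole hearts 2 of 14 platelet, 0 of 16 neutrophil and 1 of 14 lymphocyte genes passed the filter on low values. Most of these genes thus entered the comparison through the cardiomyocyte libraries, where they are high, and their counts carry no weight of their own. Of the 12 macrophage genes 10 passed the filter within the whole hearts. In the wild-type comparison all 9 platelet genes tested rose, as did all 13 neutrophil and all 10 lymphocyte genes, 10 of 12 macrophage, 11 of 12 endothelial and 11 of 12 fibroblast genes, while 11 of 12 cardiomyocyte markers fell, where 28.9% of all genes rose and 35% fell. The summed platelet level was 37.6 to 163 FPKM in cardiomyocytes and 10.9 to 67.3 FPKM in whole hearts, and the summed lymphocyte level was 90.3 to 283 FPKM in cardiomyocytes and 1.93 to 5.15 FPKM in whole hearts. The summed neutrophil level was 42.6 to 3319 FPKM in cardiomyocytes and 0.948 to 4.19 FPKM in whole hearts. The neutrophil markers Elane and Mpo were at 0 in every whole heart labelled wild-type. In the knockout comparison, 19.6% of all genes rose and 42.7% were called in either direction. With the same limits 9 of 15 erythroid, 1 of 9 platelet, 6 of 13 neutrophil and 9 of 10 lymphocyte genes rose. Of 12 cardiomyocyte markers 5 fell. The part of these cells in the globin difference was not tested.

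Across libraries of 1 preparation, the globin level was then related to other measures, with Hbb-bs as the reference gene and 28 relations tested (14 in each preparation). Over the 14 cardiomyocyte libraries, Hbb-bs correlated with Hba-a1 (Pearson r = 0.993, Spearman rho = 0.991), Alas2 (r = 0.984, rho = 0.991), Bpgm (r = 0.964, rho = 0.974) and Slc4a1 (r = 0.790, rho = 0.732). The permutation p was 1e-05 for the first 3, the smallest that the resamples can give (adjusted p = 3.5e-05), and 0.00094 for Slc4a1 (adjusted p = 0.00239), while the p of rho was 1e-05 for the first 3 (adjusted p = 4.67e-05) and 0.0036 for Slc4a1 (adjusted p = 0.00758). Without PNXM647 and PNXM664, the libraries farthest from the median, r was 0.989, 0.974, 0.937 and 0.777 for Hba-a1, Alas2, Bpgm and Slc4a1. With group means removed, r was 0.994, 0.987, 0.977 and 0.784. The relation thus held among libraries within groups. Over all pairs of the 7 genes, r lay between 0.591 and 0.994.

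Over the 9 whole hearts, Hbb-bs correlated with Hba-a1 (r = 0.998, exact permutation p = 2.76e-06, adjusted p = 3.5e-05, and rho = 1.0, exact permutation p = 5.51e-06, adjusted p = 4.67e-05) and Alas2 (r = 0.985, exact permutation p = 5.51e-06, adjusted p = 3.5e-05, and rho = 0.983, exact permutation p = 4.96e-05, adjusted p = 0.000174). Without PNXM199 and PNXM227, r was 0.999 for Hba-a1 and 0.965 for Alas2. Bpgm was not called (r = 0.606, exact permutation p = 0.087, adjusted p = 0.116, and rho = 0.467, exact permutation p = 0.213, adjusted p = 0.259), and without the 2 farthest hearts its r was 0.389. Without the scaling between libraries, an alternative chosen after the data were seen, Bpgm gave r = 0.767 and was called (permutation, adjusted p = 0.0304). Slc4a1 rests on 0 to 8 reads per heart and gave r = 0.693 (exact permutation p = 0.0354, adjusted p = 0.0615) and rho = 0.879 (exact permutation p = 0.0034, adjusted p = 0.00758), with r = 0.945 and a call without PNXM241. Whether r differs between the preparations was not tested.

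The same relation was computed for measures of other cells. In cardiomyocyte libraries the platelet gene Ppbp gave r = 0.833 (permutation p = 8e-05, adjusted p = 0.000249) and rho = 0.855 (permutation p = 0.00017, adjusted p = 0.000476), with r = 0.758 without the 2 farthest libraries. The B cell gene Cd79a gave r = 0.685 (permutation p = 0.00842, adjusted p = 0.0181) and rho = 0.684 (permutation p = 0.00865, adjusted p = 0.0161), and the neutrophil gene S100a8 r = 0.644 (permutation p = 0.0133, adjusted p = 0.0248) and rho = 0.635 (permutation p = 0.0175, adjusted p = 0.0306). Without the 2 farthest libraries r was 0.515 for Cd79a and 0.714 for S100a8, and that of Cd79a was then no longer called. With group means removed, Cd79a gave r = 0.595 and was not called either (permutation, adjusted p = 0.102). In that setting Ppbp (r = 0.823, adjusted p = 0.00277) and S100a8 (r = 0.725, adjusted p = 0.00854) stayed called by permutation. So did the mitochondrial percent described next (r = 0.593, permutation, adjusted p = 0.00716). The mitochondrial percent of assigned reads gave r = 0.662 (permutation p = 0.0106, adjusted p = 0.0212) and rho = 0.733 (permutation p = 0.00379, adjusted p = 0.00758), and it rested on those 2 libraries, with r = 0.542 and no call without them. Single libraries also decided these calls: that of Cd79a was lost without PNXM647 (r = 0.624), that of S100a8 without PNXM647, PNXM648 or PNXM654 (r = 0.525, 0.565 and 0.600), and that of the mitochondrial share without PNXM647, PNXM654 or PNXM664 (r = 0.619, 0.615 and 0.614). Without the scaling between libraries, the calls for Cd79a, S100a8 and the mitochondrial share were lost (r = 0.474, 0.551 and 0.356), and Myh6 (r = -0.637) and Pecam1 (r = -0.643) were called. In whole hearts S100a8 gave r = 0.863 (exact permutation p = 0.00318, adjusted p = 0.00741) and rho = 0.900 (exact permutation p = 0.00203, adjusted p = 0.00516). Its r was 0.826, with no call, without the 2 farthest hearts. S100a8 was low there, at 0.310 ± 0.209 FPKM in hearts labelled wild-type and 0.172 ± 0.15 FPKM in those labelled knockout (SD). S100a8, Ppbp and Cd79a did not pass the filter on low values in whole hearts, so their r there carry no weight of their own. The other measures called in cardiomyocytes were not called in whole hearts by exact permutation, with r = 0.603 for Ppbp (adjusted p = 0.092), 0.318 for Cd79a (adjusted p = 0.472) and -0.206 for the mitochondrial percent (adjusted p = 0.638). Removing group means gave a call for Ppbp in whole hearts (r = 0.599, permutation, adjusted p = 0.0142). With all libraries and the deposited values, Col1a1, C1qa, Myh6 and Pecam1 were not called in either preparation. Leaving out 1 library gave a call for Col1a1 in cardiomyocytes (r = 0.655 without PNXM648) and, in whole hearts, for Pecam1 (r = 0.780 without PNXM238), Ppbp (r = 0.686 without PNXM199 and 0.818 without PNXM227) and Cd79a (r = 0.897 without PNXM239).

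**Figure D5:**
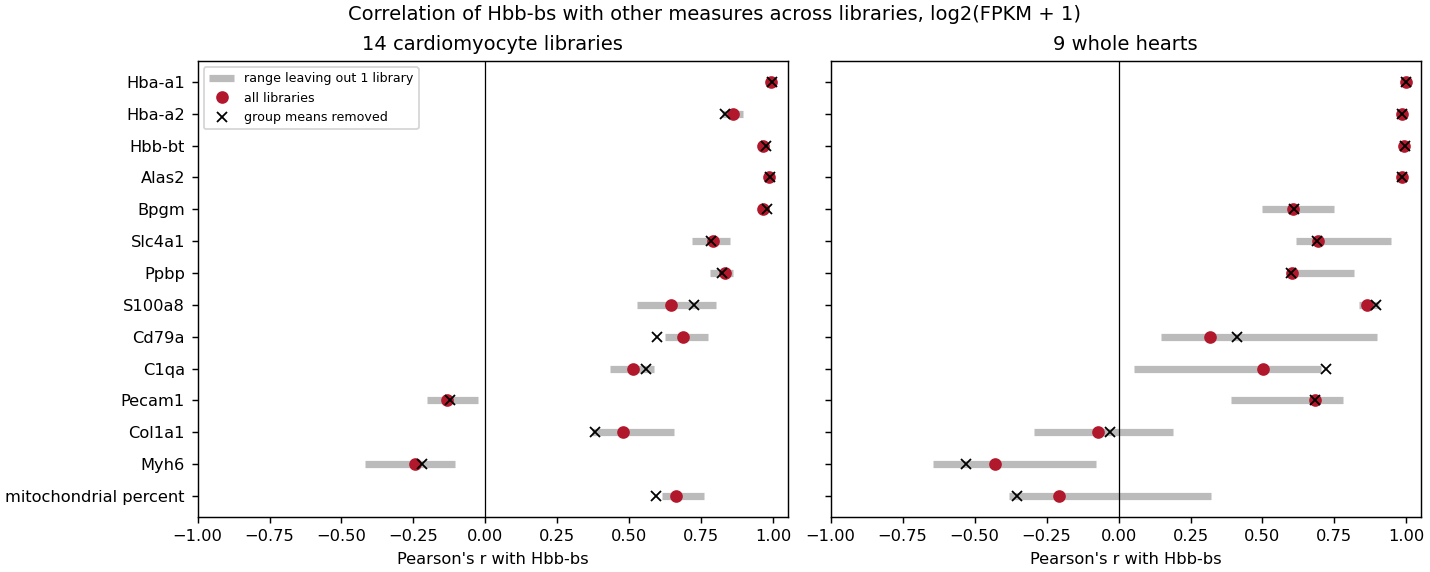
Pearson's r of Hbb-bs with 14 other measures on log2(FPKM + 1), at left over 14 cardiomyocyte libraries and at right over 9 whole hearts; red points use all libraries, crosses have group means removed, and grey bars span the values with 1 library left out. Hba-a1, Hbb-bt and Alas2 lie at 0.963 or above in both panels, and Bpgm lies at 0.964 at left and 0.606 at right.

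The genes outside the set whose level was most like that of Hbb-bs were ranked by Pearson r among 10839 protein-coding genes in cardiomyocyte libraries, where the median r was -0.02. Among the 10 highest were Ube2l6 (r = 0.993), the ubiquitin ligase Mkrn1 (0.967), Isg20 (0.955), Ccndbp1 (0.934), Fam220a (0.934), Cyp4f18 (0.929), Ube2o (0.917), Itga2b, a platelet integrin (0.916), and Hbq1a, a theta-like globin (0.912). Ube2l6 ranged from 19.2 to 210 FPKM over these libraries. In the 9 whole hearts, among 9535 genes, Ube2l6 was again first (r = 0.927, 2.25 to 4.30 FPKM), followed by Kat5 (0.924), Poglut1 (0.915), Tor4a (0.909) and Tmsb4x (0.881). Apart from Ube2l6, the 10 highest genes differed between the preparations. These r describe libraries that share depth and scaling and were ranked from all genes, so no p is given.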

How the data were processed

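RNA was measured in 23 libraries. Per the submitters' processing notes, reads were aligned with HISAT2 2.0.5 and counted with featureCounts (version not given), and per the labels libraries were made and sequenced by Novogene. The deposited values are FPKM, made by the authors. Strand use and the genome build are not given in the sources used here; coordinates match GRCm38, with 99.9% of 45142 identifiers shared with GENCODE M21 overlapping. The table has 46077 genes after 1 misaligned line was left out. All of 275370 values checked were whole reads (100%, tolerance 0.01) once multiplied by gene length and 1 library size, which is 0.426 to 1.88 times the assigned reads, so the FPKM carry a scaling between libraries.

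Group differences come from limma 3.58.1 (R 4.3.3), fitted to log2(FPKM + 1) of genes reaching an FPKM of 1 in 3 cardiomyocyte libraries or, in the other fits, in 4 libraries. Moderation was empirical Bayes with trend, tests were two-sided, and p-values were adjusted by Benjamini-Hochberg over all genes. Called means that this adjusted p fell below 0.05. Separate fits held the 14 cardiomyocyte libraries, the 9 whole hearts, and the isoproterenol libraries of both preparations. Correlations used 100000 permutations in cardiomyocytes and exact permutation in whole hearts, two-sided, adjusted over 28. Ratios have exact and shares Wilson 95% intervals. The members and lists were chosen with earlier results of these data known. The members are named throughout. From each of the 12 lists the members named are among up to 3 with the smallest unadjusted p, and the genes most like Hbb-bs are the 10 with the highest r, of which 1 is not reported here. Hbb-b1, Hbb-b2 and Ahsp, also listed, were not found among the genes of the deposited expression table and so were not analysed. Labels give no batch. Only their identifiers mark libraries as separate animals, so p-values measure the spread between libraries, which may be technical.

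Alternatives were other pseudocounts and filters, robust moderation, other scalings, summed copies, other samples in the fit, voom on the recovered reads, and leaving out each library. The fits were also run on simulated counts with known changes. Their spread between libraries was set smaller than that of most members, so that run does not bear on power or error for these genes. Tables and figures used Python 3.11.15, numpy 2.4.6, pandas 2.3.3, scipy 1.17.1 and matplotlib 3.10.9.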

Additional observations from a re-analysis of the deposited data

Results flagged for a closer look

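In whole hearts labelled knockout, PNXM199 stood apart from the other 3 hearts for all 4 globins, by Dixon's test on FPKM at the 95% level. Its level was 234.9 FPKM for Hba-a1, where the next heart had 52.4 FPKM, and 32.7 FPKM for Hba-a2, where the next had 4.77 FPKM. For Hbb-bs it was 270.2 FPKM, next to 54.8 FPKM, and for Hbb-bt 43.0 FPKM, next to 8.83 FPKM. The gap made up 0.840, 0.917, 0.859 and 0.857 of the range for Hba-a1, Hba-a2, Hbb-bs and Hbb-bt, above the critical value of 0.829 for 4 libraries. Of 28 groups of values tested 4 were flagged, where chance flags about 1 in 20 if values are normally distributed. That condition was not tested, and the spread was wide, for Hba-a1 86.8 ± 99.9 FPKM in this group (SD, n = 4). The log2 scale of the other tests was not used here, so the flags hold for FPKM only. The 4 flags are not independent, since globin levels move together across hearts.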

How the results depend on the processing

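No paired analysis was possible because the table's columns carry no replicate number, so the replicate block was not run. The number of members called stayed within 1.5 times its main value in each comparison under all 102 other fits and 68 fits with 1 library left out. Within a preparation no member was called in the main fit or in any of these fits, so there was no direction of called members to keep. In the comparisons between preparations the called members kept their direction. With copies summed to 1 row each, 5 and 4 rows were called between preparations, of 5 that remain. The planned edgeR model is not reported, since the deposited values are FPKM. Slc4a1 in the knockout comparison of preparations was called under 5 settings, from log2 1.25 without the scaling to 7.24 with voom. Sign changes touched uncalled values alone. The cause was not tested beyond the change of scaling itself, which shifts the median of all genes.

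In saline knockout against wild-type cells, quantile normalization gave -0.69 for Hba-a1, -0.22 for Hba-a2, -0.55 for Hbb-bs and -0.088 for Alas2. Leaving out the scaling gave -0.34 for Hba-a1, -0.27 for Hba-a2, -0.40 for Hbb-bs, -0.58 for Alas2 and -0.70 for Bpgm, equal totals outside the mitochondrial chromosome -0.13 for Alas2 and -0.26 for Bpgm, and voom 0.034 for Hbb-bt. In the wild-type response, quantile normalization gave -0.92 for Hba-a1, -0.63 for Hba-a2, -0.44 for Hbb-bs, -0.72 for Hbb-bt, -0.24 for Alas2 and -0.29 for Bpgm. Equal totals gave -0.023 for Hba-a1, -0.40 for Hba-a2, -0.45 for Hbb-bt, -0.25 for Alas2, -0.52 for Bpgm and -0.23 for Slc4a1. Leaving out the scaling gave -0.45 for Hba-a1, -0.82 for Hba-a2, -0.34 for Hbb-bs, -0.87 for Hbb-bt, -0.66 for Alas2, -0.92 for Bpgm and -0.48 for Slc4a1. In the difference of responses, quantile normalization gave 0.13 for Hba-a1 and 0.021 for Hbb-bs, and leaving out the scaling 0.43 for Hbb-bt, 0.11 for Bpgm and 0.38 for Slc4a1. In whole hearts leaving out the scaling gave 0.038 for Hbb-bt and 0.031 for Bpgm.

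With 1 library left out, saline knockout against wild-type differences ranged from -0.11 to 1.58 for Hba-a1, -0.16 to 1.47 for Hbb-bs, -0.86 to 0.86 for Hbb-bt, -0.27 to 1.24 for Alas2, -0.41 to 1.00 for Bpgm and -1.04 to 0.45 for Slc4a1. The wild-type response ranged from -0.19 to 1.09 for Hba-a2, -0.22 to 1.09 for Hbb-bt, -0.20 to 0.82 for Bpgm and -0.28 to 1.31 for Slc4a1. Whole hearts ranged from -1.02 to 0.20 for Hba-a1, -0.96 to 0.16 for Hba-a2, -0.94 to 0.30 for Hbb-bs, -0.78 to 0.36 for Hbb-bt and -0.47 to 0.094 for Alas2.

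For the relations of Hbb-bs, Col1a1 gave r of -0.085 in cardiomyocytes and 0.047 in whole hearts without the scaling. Without the 2 farthest hearts, whole hearts gave 0.035 for Col1a1, 0.291 for Myh6 and 0.206 for mitochondrial percent. With 1 heart left out, Col1a1 ranged from -0.294 to 0.188 and mitochondrial percent from -0.379 to 0.320.

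Counts over all genes moved more. The wild-type response had 84 calls, against 2 with quantile normalization, 129 with a filter of FPKM 5, 1631 with equal totals, 7572 without the scaling, and 0 to 222 with 1 library left out. Without the scaling, 5983 and 5083 genes were called in the saline and isoproterenol knockout comparisons and 9747 in the difference of responses, and without a filter 19 were called after saline. Depth limits Slc4a1 in whole hearts, with at most 8 reads.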
